A study of Saccharomyces cerevisiae with 23 samples.

Results

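The metallothionein and copper defence genes of budding yeast described here are 6 genes chosen by standard name: the metallothionein genes CUP1-1, CUP1-2 and CRS5, the gene of their copper-sensing activator, CUP2, the gene of copper/zinc superoxide dismutase, SOD1, and the gene of its copper chaperone, CCS1. Each has 1 probe, spotted in duplicate, so that they account for 6 of the 6256 gene probes on the array, and all 6 passed the filter on dim probes. Transcripts were measured on 23 two-colour Agilent arrays in Saccharomyces cerevisiae BY4741a that lacks PDR5, a plasma membrane exporter of drugs. The deletion was carried by every sample, controls included, and no PDR5+ strain was compared. The 6 groups were untreated cells, cells given 1 mM CuSO4, cells given 2 mM ZnSO4, cells given 5 µg/mL of a statin, and cells given the statin with 1 mM CuSO4 or with 2 mM ZnSO4. The statin, an inhibitor of the sterol pathway enzyme HMG-CoA reductase, is not named further in the labels. All cultures, untreated ones included, held 2% glucose, 0.25 mM EDTA, a chelator of metal ions, and 0.1% DMSO. Statin cultures came from statin precultures at an OD600 of 0.09 rather than 0.01 and were harvested near an OD600 of 0.4 rather than 0.8, so that statin and culture density cannot be told apart.

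Metallothioneins are small cysteine-rich proteins that bind copper ions in the cytosol. In budding yeast Cup2, also called Ace1, takes up copper, folds its DNA-binding domain around it and then activates CUP1, CRS5 and SOD1. CUP1 lies in a tandem array whose copy number differs between strains, and CUP1-1 and CUP1-2 are the names of copies in the reference strain. Sod1 removes superoxide and can itself hold copper, and Ccs1 delivers copper to it.

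The 17 biological samples comprised 3 per group, except 2 for the statin with ZnSO4. Of these, 6 were hybridised on 2 arrays each. Every sample (Cy3) was hybridised against the same kind of reference (Cy5), a pool of RNA from all 6 conditions, and values are log2 ratios of sample over reference. Dyes were never swapped. Between arrays of different samples r over genes reached -0.56, and the direction was taken from the dyes stated in the labels. Replicates 1, 2 and 3 were scanned in separate sessions, with 98.4% to 98.8%, 95.7% to 97.4% and 77.1% to 89.9% of gene probes well above background. Within groups, samples correlated at r = 0.74 to 0.91, except 0.27 to 0.76 for the statin with CuSO4. The deleted PDR5 was well above background on 0 of 23 arrays. HIS3, LEU2, MET17 and URA3, which are absent or disrupted in BY4741, were so on 0, 2, 15 and 6 arrays. The mark was thus set on some arrays for genes that the strain lacks. MET17 reached the 7.6 percentile of gene probes at most, and none of these genes passed the filter on dim probes. Of genes specific to mating type a, STE2, MFA1 and MFA2 were well above background on 23, 21 and 22 arrays, but so was STE3, a gene of mating type alpha, on 22, so that these marks did not separate the mating types. The spots of all 6 members were well above background on all 23 arrays, and none was saturated. The RNA came from whole cultures, so more transcript in each cell and more cells carrying it cannot be told apart. The labels call the replicates biological, and p-values measure the spread between these samples.

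Copper raised the log ratio of both CUP1 probes more than that of any other gene tested. In untreated cells the log2 ratio of CUP1-1 was -4.56, -4.79 and -3.79 in replicates 1, 2 and 3, a mean of -4.38 ± 0.52 (SD, n = 3). With CuSO4 it was 1.53, 0.61 and 1.07, a mean of 1.07 ± 0.46 (SD, n = 3). The groups did not overlap, and every sample with CuSO4 lay above the reference while every untreated sample lay far below it. CUP1-1 was 43.9-fold higher with CuSO4, a log2 difference of 5.46 ± 0.29 (SE, adjusted p = 4.8e-09, limma), and the 3 differences within a scan session were 6.10, 5.40 and 4.87. CUP1-2 was 45.0-fold higher, by 5.49 ± 0.29 (SE, adjusted p = 4.8e-09). By size of increase CUP1-2 ranked 1 and CUP1-1 ranked 2 of 5606 genes tested.

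The same held in statin-treated cells. CUP1-1 had log2 ratios of -3.45, -3.94 and -3.35 with the statin alone and of 1.99, 1.17 and 1.46 with the statin and CuSO4, groups that again did not overlap. The difference was 5.12 ± 0.29 (SE, 34.8-fold, adjusted p = 8.3e-09, limma), with 5.44, 5.11 and 4.81 within scan sessions. CUP1-2 was 35.0-fold higher, by 5.13 ± 0.29 (SE), and the pair again ranked first and second. The effect of CuSO4 on CUP1-1 with the statin minus that without it was -0.33 ± 0.41 (SE, 95% interval -1.21 to 0.54, adjusted p = 0.644), and that on CUP1-2 was -0.36 ± 0.41. A difference between the copper effects was therefore not called, and the interval leaves room for a response with the statin from 1.21 lower to 0.54 higher on the log2 scale.

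Against the background, 18.0% of the 5606 genes were called higher and 16.6% lower with CuSO4 against untreated cells, at an adjusted p under 0.05. Of the 6 members, 2 were called higher, the CUP1 genes, and 1 lower, CUP2. Here and in the member counts below, the CUP1 genes count as 2 although their probes share signal. In statin-treated cells CuSO4 raised 9.44% of genes and lowered 7.31%, and among the members again 2 were higher and 1 lower. In the interaction of statin and CuSO4, 8.13% of genes were called higher and 10.3% lower, and none of the members.

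**Figure D1:**
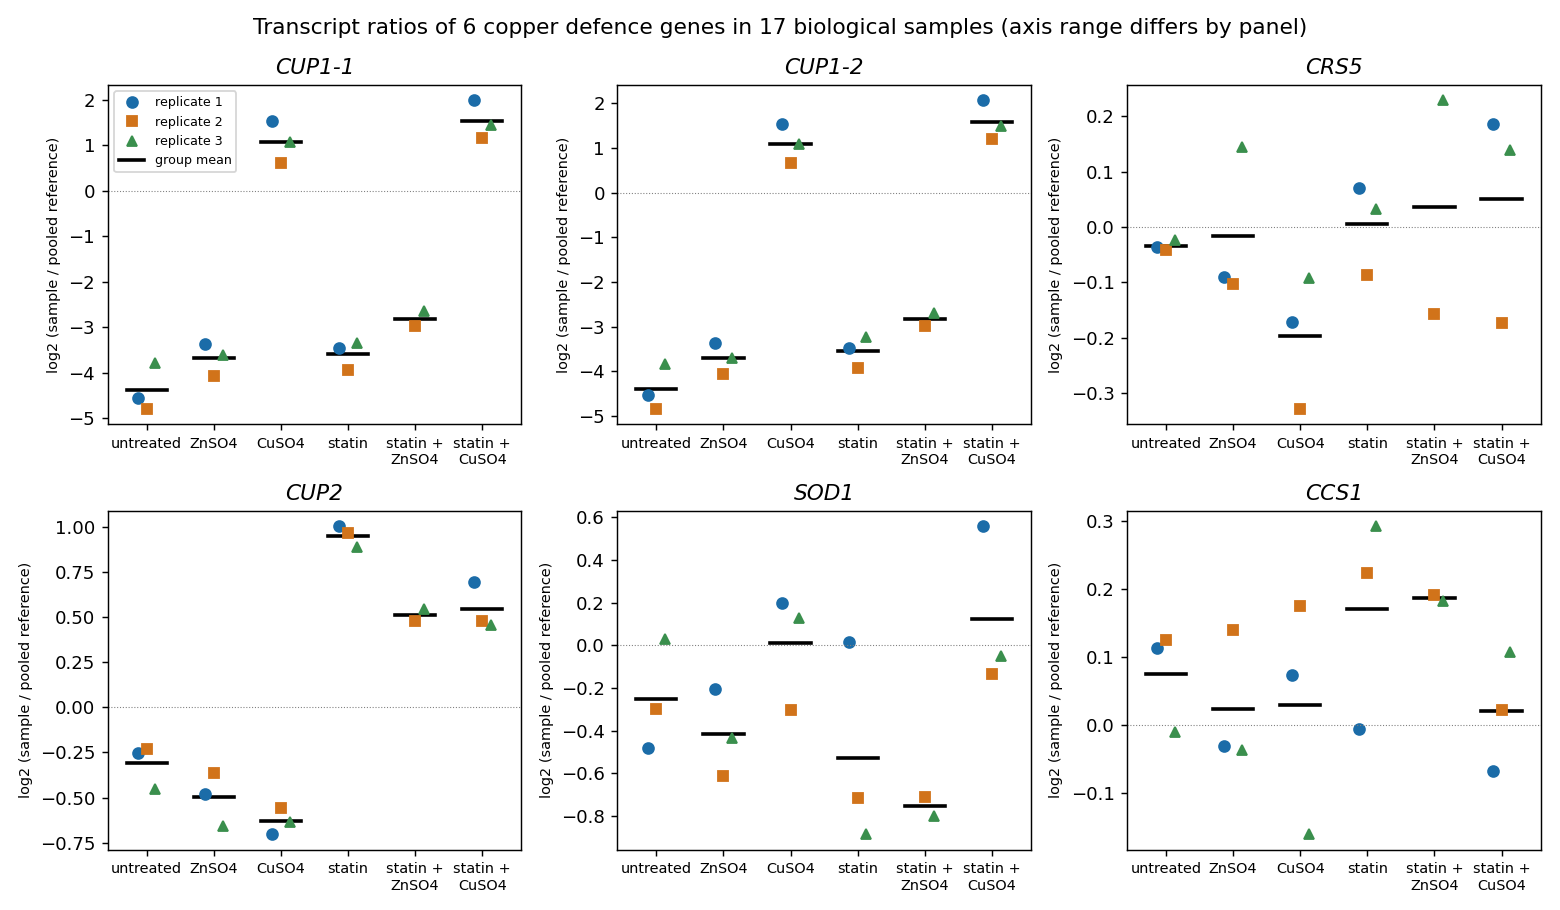
Log2 ratio of sample over pooled reference (vertical axis, a separate range in each panel) for each of the 6 genes in the 6 groups. Points are the 17 biological samples with the shape giving the replicate, bars are group means, and both CUP1 panels show the CuSO4 groups above 0 and all other groups below -2.6, while CUP2 separates the 3 statin groups from the others.

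The CUP1-1 and CUP1-2 probes cannot be taken as separate measurements. The copies encode the same transcript, and the probes gave nearly the same value in every sample: their log2 ratios differed by 0.0065 on average and by 0.11 at most, and correlated at r = 0.9998 over 17 samples, which are those of the same hybridisations. Agreement of the pair is agreement of probes, not of genes. The copy number of the array in this strain was not measured here.

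In signal, CUP1-1 stood at 2026 to 11286 scanner units on the 14 arrays of samples without CuSO4, the 62.9 to 92.8 percentile of gene probes. On the 9 arrays with CuSO4 it stood at 48937 to 132432, the 99.9 to 100.0 percentile. The transcript was thus well measured also without added copper, at 2463 units on average in untreated cells. All 18 spots of CUP1-1 on the copper arrays took their sample signal from the scanner's low-gain reading, scaled up, and 0 of 28 on the other arrays did. The reference channel used the low-gain reading on all 23 arrays.

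The reference signal of CUP1 was not constant. Although the same kind of pool was hybridised throughout, the CUP1-1 reference signal, relative to each array's 75th percentile, was lower on copper arrays than on the others of the same scan session by 1.80-fold, 1.72-fold and 1.54-fold in sessions 1, 2 and 3. For CUP1-2 the folds were 1.84, 1.90 and 1.78. In each of the 3 sessions CUP1-2 and CUP1-1 had the lowest and second lowest such difference of 5606 genes, with 95% of genes between -0.18 and 0.13 on the log2 scale in session 1. The raw median intensities gave log2 differences of -0.72, -0.90 and -0.57 for CUP1-1. SOD1, also among the brightest probes, was lower in the processed reference signal by 1.27-fold and 1.25-fold in sessions 1 and 3 but not in session 2, where its fold was 0.99. From the raw median intensities it was lower in all 3 sessions, with log2 differences of -0.25, -0.11 and -0.25.

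These reference differences enter every copper ratio of CUP1. From the sample channel alone, an alternative chosen after these signals were seen, CUP1-1 was 27.3-fold higher with CuSO4 against untreated cells (log2 4.77 ± 0.25, SE, adjusted p = 8.6e-09, limma). In statin-treated cells it was 20.6-fold higher (4.37 ± 0.25, adjusted p = 2.1e-08). The rise was called by both measures, and its fold was 1.61 and 1.69 times larger by the ratio. For CUP1-2 the folds from the sample channel were 26.5 and 18.8. What lowered the reference signal was not tested.

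**Figure D2:**
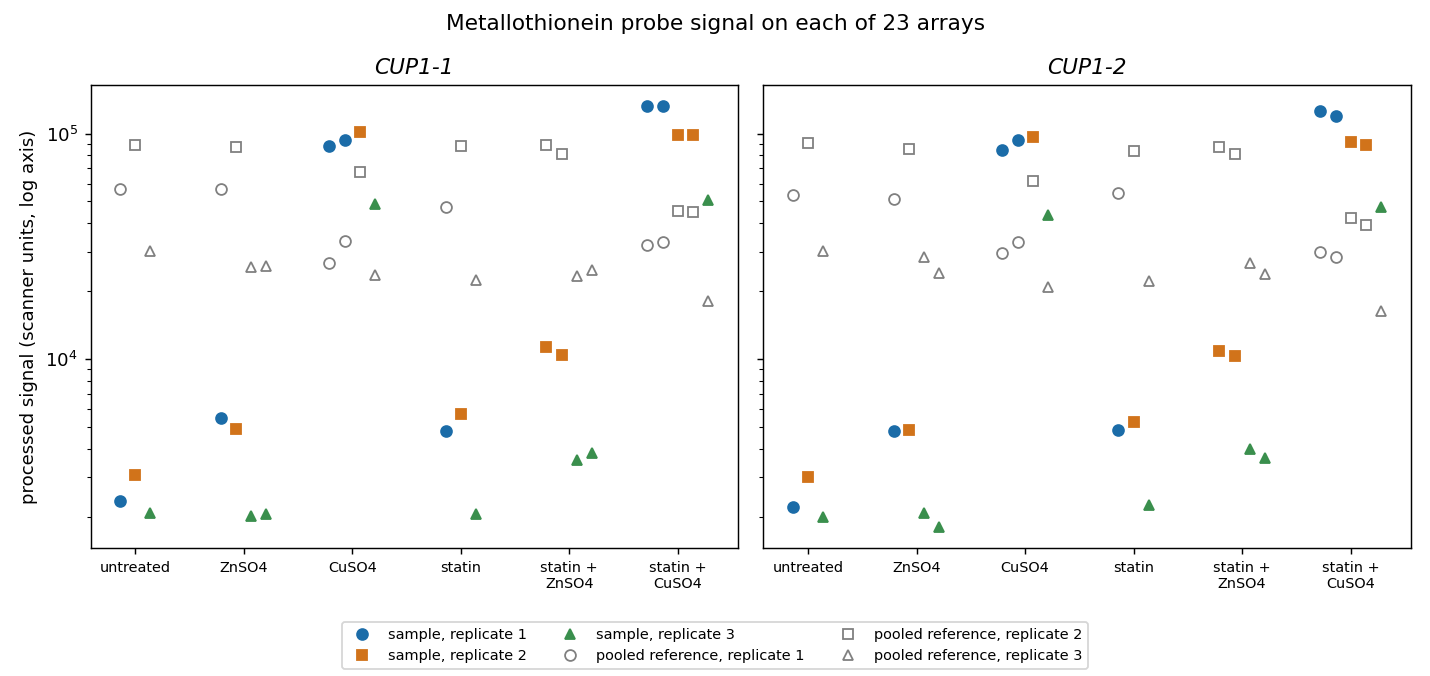
Processed signal of the CUP1-1 and CUP1-2 probes (scanner units, log axis) on each of the 23 arrays, by group. Filled points are the sample channel and open points the pooled reference, with the shape giving the replicate and so the scan session. Sample signals jump on the arrays with CuSO4, where in sessions 1 and 2 all reference points lie below those of the other arrays, while in session 3 the CUP1-1 points overlap before scaling to the array's 75th percentile.

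Without added copper, CUP1 varied between groups on a much smaller scale. From low to high mean log2 ratio of CUP1-1, the groups were untreated cells (-4.38 ± 0.52, SD, n = 3), ZnSO4 (-3.68 ± 0.36, n = 3), the statin (-3.58 ± 0.32, n = 3), the statin with ZnSO4 (-2.81 ± 0.24, n = 2), CuSO4 (1.07) and the statin with CuSO4 (1.54 ± 0.42, n = 3). The single step between neighbours that was called was the one from the statin with ZnSO4 to CuSO4, 3.89 ± 0.33 (SE, adjusted p = 8.2e-07, limma, in a comparison that called 27.2% of genes). The step from ZnSO4 to the statin was 0.10 ± 0.29 (adjusted p = 0.794, 48.8% of genes called). Untreated cells and the statin with ZnSO4, which are not neighbours, differed by 1.57 ± 0.33 (2.97-fold, adjusted p = 0.0017, 35.8% of genes called).

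With the statin alone CUP1-1 was 1.74-fold higher than in untreated cells, by 0.80 ± 0.29 (SE, adjusted p = 0.0424, limma), and CUP1-2 was 1.81-fold higher (adjusted p = 0.0309). The groups overlapped, since untreated replicate 3 (-3.79) lay above statin replicate 2 (-3.94), and the differences within scan sessions were 1.11, 0.85 and 0.45. The call was marginal. For CUP1-1 it was lost without untreated replicate 1 or 2, statin replicate 1 or 3, ZnSO4 replicate 3 or statin with CuSO4 replicate 3, with adjusted p up to 0.163, and in the sample channel alone (adjusted p = 0.0526). For CUP1-2 it was lost without untreated replicate 1 or 2 or statin replicate 1 or 3 (adjusted p up to 0.131). In this comparison 18.0% of genes were called higher and 18.8% lower. Of the members 3 were higher, CUP2 and the CUP1 genes, and none lower.

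ZnSO4 gave CUP1-1 log2 ratios of -3.37, -4.07 and -3.61, a difference from untreated cells of 0.70 ± 0.29 (SE, adjusted p = 0.124, limma) that was not called. Within scan sessions it was 1.19, 0.72 and 0.19, positive in 3 of 3. With the replicate number, and so the session, as a block it was called (adjusted p = 0.0152, and 0.0162 for CUP1-2), as it was without untreated replicate 3 (0.99, adjusted p = 0.0372). In the presence of the statin, CUP1-1 was -2.98 and -2.64 with ZnSO4 in replicates 2 and 3, 0.77 ± 0.33 above the statin alone (adjusted p = 0.110), and 0.96 and 0.70 above it within sessions. With the block this difference was 0.88 (adjusted p = 0.0081). CUP1-2 gave 0.71 ± 0.33 (adjusted p = 0.138) and, with the block, 0.83 (adjusted p = 0.0122). The sample channel alone also called both (0.86 and 0.85, adjusted p = 0.04998 and 0.04696).

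ZnSO4 against untreated cells called 8.79% of genes higher and 7.76% lower, and none of the members. ZnSO4 in statin-treated cells called 11.7% higher and 10.3% lower, and of the members 0 higher and 1 lower, CUP2. The interaction of statin and ZnSO4 called 0.660% higher and 0.375% lower, and none of the members.

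With a metal present in both groups, the statin moved CUP1 by amounts that were not called. The statin with CuSO4 against CuSO4 alone gave 0.47 ± 0.29 for CUP1-1 (SE, adjusted p = 0.208, limma, and 0.0483 with the replicate block), but -0.01 when arrays were centred on their median in place of loess. This comparison called 21.0% of genes higher and 23.3% lower, with 1 member higher, CUP2, and none lower. The statin with ZnSO4 against ZnSO4 gave 0.87 ± 0.33 (adjusted p = 0.0582). With the block it was 0.99 (adjusted p = 0.0036), from the sample channel alone 0.92 (adjusted p = 0.0313), and it was also called without untreated replicate 3, CuSO4 replicate 2 or statin with CuSO4 replicate 1 or 2 (adjusted p = 0.0387 to 0.0498). Here 14.4% of genes were called higher and 14.2% lower, again with CUP2 as the 1 member higher and none lower.

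The metals differed sharply from each other at CUP1. CUP1-1 was 27.0-fold higher with CuSO4 than with ZnSO4 (4.76 ± 0.29, SE) and 20.4-fold higher in the presence of the statin (4.35 ± 0.33), and CUP1-2 was 27.7-fold and 21.4-fold higher. From the sample channel alone the CUP1-1 folds were 17.8 and 11.4. CuSO4 against ZnSO4 called 9.03% of genes higher and 6.65% lower. With the statin in both groups 0.232% were higher and 0.250% lower, a count that rested on 1 sample: 27 genes were called, and 567 without statin with CuSO4 replicate 2. Median centring split the calls into 14 higher and 10 lower, against 13 and 14, and the sample channel alone into 5 and 0. Both comparisons called the 2 CUP1 genes higher and no member lower.

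CRS5, the other metallothionein gene, passed the test in none of the 11 comparisons, copper included. Its log2 ratios lay between -0.33 and 0.23 in all 17 samples, with untreated samples at -0.04, -0.04 and -0.02 and CuSO4 samples at -0.17, -0.33 and -0.09. The copper samples all lay below the untreated ones without the statin, and the groups overlapped with it (0.07, -0.09 and 0.03 with the statin, 0.19, -0.17 and 0.14 with CuSO4 added). CuSO4 changed CRS5 by -0.16 ± 0.12 (SE, adjusted p = 0.32, 95% interval -0.42 to 0.09, limma) without the statin and by 0.04 ± 0.12 (adjusted p = 0.872, interval -0.21 to 0.30) with it. With the replicate block the statin with CuSO4 against CuSO4 was called, at 0.25 (adjusted p = 0.0268, against 0.110 without), as it was without statin with CuSO4 replicate 2 (0.36, adjusted p = 0.0246). The CRS5 spots gave 852 to 1848 scanner units, the 45.3 to 66.0 percentile of gene probes, all well above background. The reference annotation of the R64 assembly lists CRS5 as a pseudogene, and whether this strain carries an intact reading frame was not measured here.

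CUP2, the activator gene, moved against the CUP1 genes under copper and with them under the statin. In untreated cells its log2 ratios were -0.25, -0.23 and -0.45, and with CuSO4 -0.70, -0.56 and -0.63, every copper sample below every untreated sample. The difference was -0.32 ± 0.10 (SE, adjusted p = 0.023, limma), with -0.45, -0.33 and -0.18 within scan sessions. This call was lost without CuSO4 replicate 1 or untreated replicate 1 or 2 (adjusted p up to 0.0873). In statin-treated cells CuSO4 lowered CUP2 by 0.41 ± 0.10 (adjusted p = 0.0106), from 1.00, 0.96 and 0.89 to 0.70, 0.48 and 0.46, groups that did not overlap, and this call was lost without statin with CuSO4 replicate 3 (adjusted p = 0.0525). ZnSO4 lowered it in statin-treated cells by nearly the same amount, 0.44 ± 0.11 (adjusted p = 0.0120), to 0.48 and 0.55. That call was lost without either statin with ZnSO4 sample (adjusted p 0.0883 without replicate 2 and 0.0575 without replicate 3) and in the sample channel alone (adjusted p = 0.0803). Without the statin the ZnSO4 difference was -0.19 ± 0.10 (adjusted p = 0.239).

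Of the 11 comparisons, the statin against untreated cells gave the largest change of CUP2. It was 2.40-fold higher than in untreated cells, by 1.26 ± 0.10 (SE, adjusted p = 2.7e-07, limma), and by 1.25, 1.19 and 1.34 within scan sessions. With CuSO4 in both groups the statin raised it by 1.17 ± 0.10 (adjusted p = 8.3e-07), and with ZnSO4 in both by 1.01 ± 0.11 (adjusted p = 1.5e-05). All 8 statin samples lay between 0.46 and 1.00, and all 9 others between -0.70 and -0.23. The order of its groups was CuSO4, ZnSO4, untreated, statin with ZnSO4, statin with CuSO4 and statin. Steps were called from untreated to statin with ZnSO4 (0.82 ± 0.11, adjusted p = 5.4e-05) and from statin with CuSO4 to statin (0.41, above), but not from CuSO4 to ZnSO4 (0.13 ± 0.10), from ZnSO4 to untreated (0.19 ± 0.10) or between the statin with either metal (0.03 ± 0.11). The interaction of statin and CuSO4 for CUP2 was -0.09 ± 0.14 (95% interval -0.39 to 0.22).

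SOD1 was among the brightest probes in every sample, at the 98.9 to 99.9 percentile of gene probes, and varied widely within groups. Its log2 ratios were -0.48, -0.30 and 0.03 in untreated cells and 0.20, -0.30 and 0.13 with CuSO4, overlapping groups that differed by 0.26 ± 0.23 (SE, adjusted p = 0.417, limma). With the statin they were 0.01 (from the 1 spot not marked as an outlier), -0.72 and -0.89, and with the statin and CuSO4 0.56, -0.14 and -0.05. That difference was 0.65 ± 0.23 (adjusted p = 0.067), with overlap between the groups but 0.54, 0.58 and 0.83 within scan sessions, higher in 3 of 3. It was called with the replicate block (adjusted p = 0.027), without statin replicate 1 (0.93, adjusted p = 0.0101) and without statin with CuSO4 replicate 2 (0.78, adjusted p = 0.0462). From the sample channel alone it was 0.39 ± 0.23 (adjusted p = 0.391), beside the lower SOD1 reference signal on copper arrays given above.

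The order of SOD1 groups was statin with ZnSO4 (-0.75), statin (-0.53), ZnSO4 (-0.42), untreated (-0.25), CuSO4 (0.01) and statin with CuSO4 (0.12), with no step between neighbours called. Of pairs that are not neighbours, CuSO4 lay above the statin with ZnSO4 by 0.76 ± 0.26 (SE, adjusted p = 0.0404, limma, 27.2% of genes called). From the sample channel alone this pair was not called (0.63, adjusted p = 0.114). The statin gave 0.49, -0.42 and -0.92 within scan sessions, so that replicate 1 ran against the other replicates, and a mean of -0.28 ± 0.23. In the presence of the statin, copper samples exceeded zinc samples by 0.88 ± 0.26 (SE, adjusted p = 0.160), and by 1.01 without statin with CuSO4 replicate 2 (adjusted p = 0.0316). CuSO4 exceeded ZnSO4 by 0.43 ± 0.23 without the statin (adjusted p = 0.237).

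CCS1 passed the test in none of the 11 comparisons. Its log2 ratios lay between -0.16 and 0.29 in all 17 samples, with 0.11, 0.12 and -0.01 in untreated cells. The statin with ZnSO4 samples (0.18 and 0.19) lay above the untreated ones, and the other groups overlapped them. That difference, 0.11 ± 0.12 (SE, adjusted p = 0.497, limma), was not called. CuSO4 gave -0.05 ± 0.11 (SE, adjusted p = 0.773, 95% interval -0.27 to 0.18, limma) without the statin and -0.15 ± 0.11 (adjusted p = 0.404, interval -0.38 to 0.08) with it. The statin gave 0.09 ± 0.11. Its order of groups was statin with CuSO4, ZnSO4, CuSO4, untreated, statin and statin with ZnSO4, with means from 0.02 to 0.19 and no step between neighbours called. The lowest step, between the statin with CuSO4 and ZnSO4, was 0.0034 ± 0.11 in a comparison that called 37.7% of genes. The chaperone's signal, at the 82.5 to 88.4 percentile, lay below that of SOD1, but levels of different probes are not comparable.

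**Figure D3:**
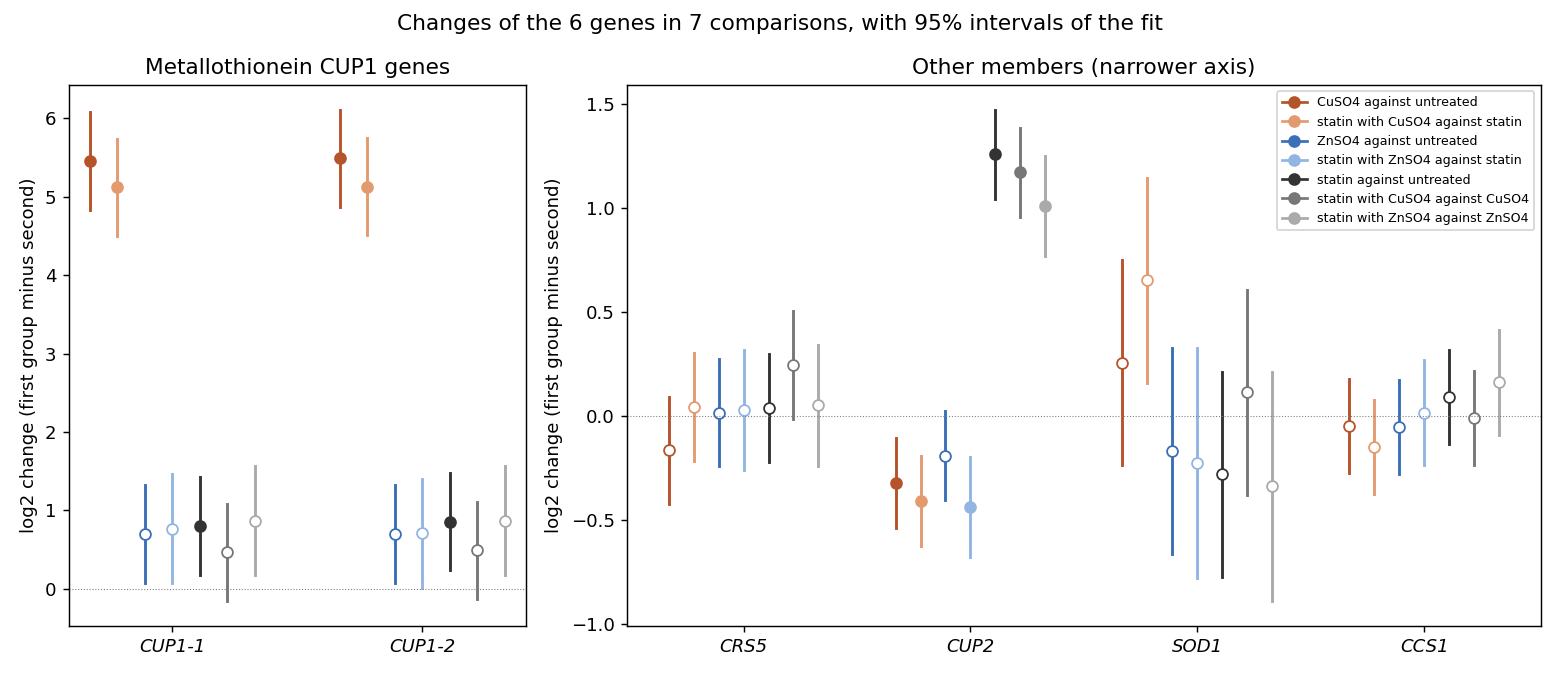
Log2 change of each gene (first group minus second) in 7 comparisons, with CUP1-1 and CUP1-2 on the left and the others on a narrower axis on the right. Bars are 95% intervals of the limma fit before adjustment for the number of genes, and filled points passed an adjusted p under 0.05. The 2 copper comparisons stand above 5 for CUP1, and the 3 statin comparisons stand near 1 for CUP2.

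Among themselves the members did not move as one group. SOD1 and CCS1, enzyme and chaperone, ran opposite ways over the 17 samples, with r = -0.77, and with -0.62 over the 6 copper samples and -0.86 over the 11 others. CUP1-1 and SOD1 correlated at 0.88 over the copper samples and at -0.28 over the others. These correlations share arrays and scan sessions between the genes and are descriptions of these samples.

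Over all genes measured in the 17 samples, those closest to CUP1-1 after CUP1-2 were KGD2, a subunit gene of 2-oxoglutarate dehydrogenase (r = 0.90), and ACH1, a mitochondrial CoA transferase gene (0.86). These values rest on the split between copper and other samples: for KGD2 r was 0.69 over the 6 copper samples and 0.28 over the 11 others. CUP2 was most like PTP2, a tyrosine phosphatase gene, PBI1 and SRL3 (each r = 0.98). Over the 8 statin samples these were 0.95, 0.90 and 0.86 and over the 9 others 0.56, 0.67 and 0.73. CRS5 was most like TOM1 (0.90), SFP1 (0.88) and YAP1 (0.88). SOD1 was most like OM14 (0.87), HSP31 (0.82) and GLO2 (0.81), and CCS1 was most like LAA2 (0.84), YPL025C (0.79) and JNM1 (0.78).

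Other copper genes were read from fixed lists, each set beside all 5606 genes, whose median log2 change was -0.04 with CuSO4 and 0.01 with CuSO4 in statin-treated cells. The shares of all genes called were, as above, 18.0% higher and 16.6% lower with CuSO4, and 9.44% and 7.31% with CuSO4 in statin-treated cells. Copper uptake genes fell. Of the 5 listed, 4 were lower with CuSO4 and none higher (median -0.50), and the same count was lower in statin-treated cells (median -3.03). FRE1, a surface metal reductase, fell by 4.27 ± 0.23 (SE, adjusted p = 4.8e-09, limma) and by 3.64 ± 0.23 with the statin, and CTR1, the high-affinity copper transporter, fell by 3.91 ± 0.25 and fell by 3.81 ± 0.25 with the statin. CTR3, another such transporter, had changes of -0.43 and -0.63, both called. FRE7, another reductase, fell by 3.03 ± 0.30 with CuSO4 in statin-treated cells. Without the statin it was at -0.50 and not called, and the interaction was called (-2.53). The statin alone raised FRE7 by 2.45. MAC1, the activator of these genes, fell by 0.31 without the statin. From the sample channel alone 2 of the 5 were called lower with CuSO4, beside 515 of all 5606 genes. With CuSO4 in statin-treated cells 3 were, beside 261 of all genes. ZnSO4 also lowered genes of this list, with changes of -3.11 for FRE1 and -2.75 for CTR1, and both were lower with CuSO4 than with ZnSO4, each by -1.16.

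The copper-dependent ferroxidases and their permease partners, which take up or move iron, were all lower with CuSO4, 4 of 4 in both settings (medians -1.21 and -1.88). Of all genes 16.6% and 7.31% were called lower. The changes without and with the statin were -1.26 ± 0.18 and -2.20 ± 0.18 (SE) for FET3, -1.17 and -2.17 for FTR1, -1.37 and -1.59 for FTH1, and -0.94 and -1.32 for FET5, all called. With ZnSO4 all 4 were lower too, in both settings (medians -1.37 and -1.91), beside 7.76% and 10.3% of all genes. Of the 16 copper chaperone and handling genes, 3 were higher, a share near the 18.0% over all genes, and 5 lower, against 16.6%, with CuSO4 (median -0.16). With CuSO4 in statin-treated cells 0 were higher and 5 lower (median -0.06), beside 9.44% and 7.31% of all genes. Without statin with CuSO4 replicate 2 the latter count was 3 lower, beside 390 of all genes, and the median 0.03. CCC2, the pump that loads copper into the Golgi, had called changes of -1.82 and -1.87, and PCA1, a metal-transporting ATPase, of -1.38 and -1.30. CTR2, the vacuolar copper transporter, had called changes of -0.67 and -0.73. CUP9, a repressor, fell by 1.07 without the statin and was at -0.05 with it. Its mean log2 ratio before CuSO4 was 0.27 in untreated cells and -0.12 with the statin. COX19 fell by 0.41 with CuSO4 in statin-treated cells (adjusted p = 0.0496, limma), from a mean of 0.52 to 0.12, beside 0.10 in untreated cells. COX17, which carries copper to cytochrome oxidase, rose by 1.05 ± 0.18 without the statin and was at 0.51, not called, with it.

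Of 24 genes of superoxide and peroxide defence other than SOD1 and CCS1, 3 were higher and 2 lower with CuSO4 (median -0.08). These are smaller shares than the 18.0% and 16.6% over all genes. With CuSO4 in statin-treated cells 5 were higher and 0 lower (median 0.11), beside 9.44% and 7.31% of all genes. Over 24 alternatives the first count was 3 to 4 higher and 0 to 3 lower. The latter count was 8 higher with the replicate block, beside 768 of all 5606 genes. It was also 8 higher without statin with CuSO4 replicate 2, beside 566 of all genes. CTT1, the cytosolic catalase, rose by 2.12 ± 0.31 and 3.47 ± 0.31, CCP1, the mitochondrial cytochrome c peroxidase, by 2.00 ± 0.20 and 3.47 ± 0.20, and CTA1, the peroxisomal catalase, by 0.89 and 1.18. The rises of CTT1 and CCP1 were greater with the statin, by an interaction of 1.35 and 1.47. They started from lower mean log2 ratios with the statin alone (-2.69 and -2.76) than in untreated cells (-1.65 and -1.64). ZnSO4 raised the same 3 genes, CTT1 by 1.26, CCP1 by 2.17 and CTA1 by 0.87. TSA1, a peroxiredoxin, rose by 0.95 with CuSO4 in statin-treated cells, from a mean log2 ratio of -0.91 to 0.03, beside 0.06 in untreated cells. GSH1, which makes the first intermediate of glutathione, fell by 1.49 ± 0.48 with CuSO4 alone.

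Heat shock factor, which can also activate CUP1, has a list of 22 genes here, its own gene among them. With CuSO4 2 were higher, against 18.0% of all genes, and 4 lower, near the 16.6% of all genes (median -0.01). With CuSO4 in statin-treated cells 0 were higher and 2 lower (median -0.24), beside 9.44% and 7.31% of all genes. The called changes with CuSO4 included -2.30 ± 0.40 (SE) for HSP26, a small heat shock protein gene, -0.90 for HSP78 and -0.59 for HSP104, both of disaggregases, and -0.55 for CUR1. In statin-treated cells they were -1.62 ± 0.38 for SSA3, an Hsp70 gene, and -0.67 for BTN2. With the replicate block 3 were higher and 6 lower with CuSO4, beside 1211 higher and 1303 lower of all 5606 genes. Under the block 6 were lower with CuSO4 and the statin, beside 609 of all genes. The statin alone raised 13 of the 22 and lowered none (median 0.55), beside 18.0% of all genes higher and 18.8% lower. Among the 13 were SSA3, higher by 2.17, BTN2, by 1.59, and HSP104, by 1.21. In the same comparison CUP1-1 was 1.74-fold higher and CUP2 2.40-fold higher. What part, if any, heat shock factor or Cup2 had in the CUP1-1 change was not tested.

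Of 10 zinc handling genes, 2 were higher and 3 lower with CuSO4 (median -0.04), beside 18.0% and 16.6% of all genes. In statin-treated cells 1 was higher and 4 were lower (median -0.27), against 9.44% and 7.31%. ADH4, a zinc-regulated alcohol dehydrogenase gene, rose by 1.62 ± 0.13 and 0.66. The latter rise ran from a mean of -0.99 with the statin to -0.33, beside -0.23 in untreated cells. COT1, which moves zinc and cobalt into the vacuole, had called changes of -1.57 and -0.99, and ZRT3, which exports vacuolar zinc, of -0.79 and -1.19. ZRT2, the low-affinity zinc transporter gene, was at -0.48 with CuSO4 alone, and ZPS1 and ZRT1 at -1.32 and -0.98 with CuSO4 in statin-treated cells, all called. With ZnSO4, ZRT1, the high-affinity zinc transporter gene, was at -5.00 and ZRT2 at -2.06.

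**Figure D4:**
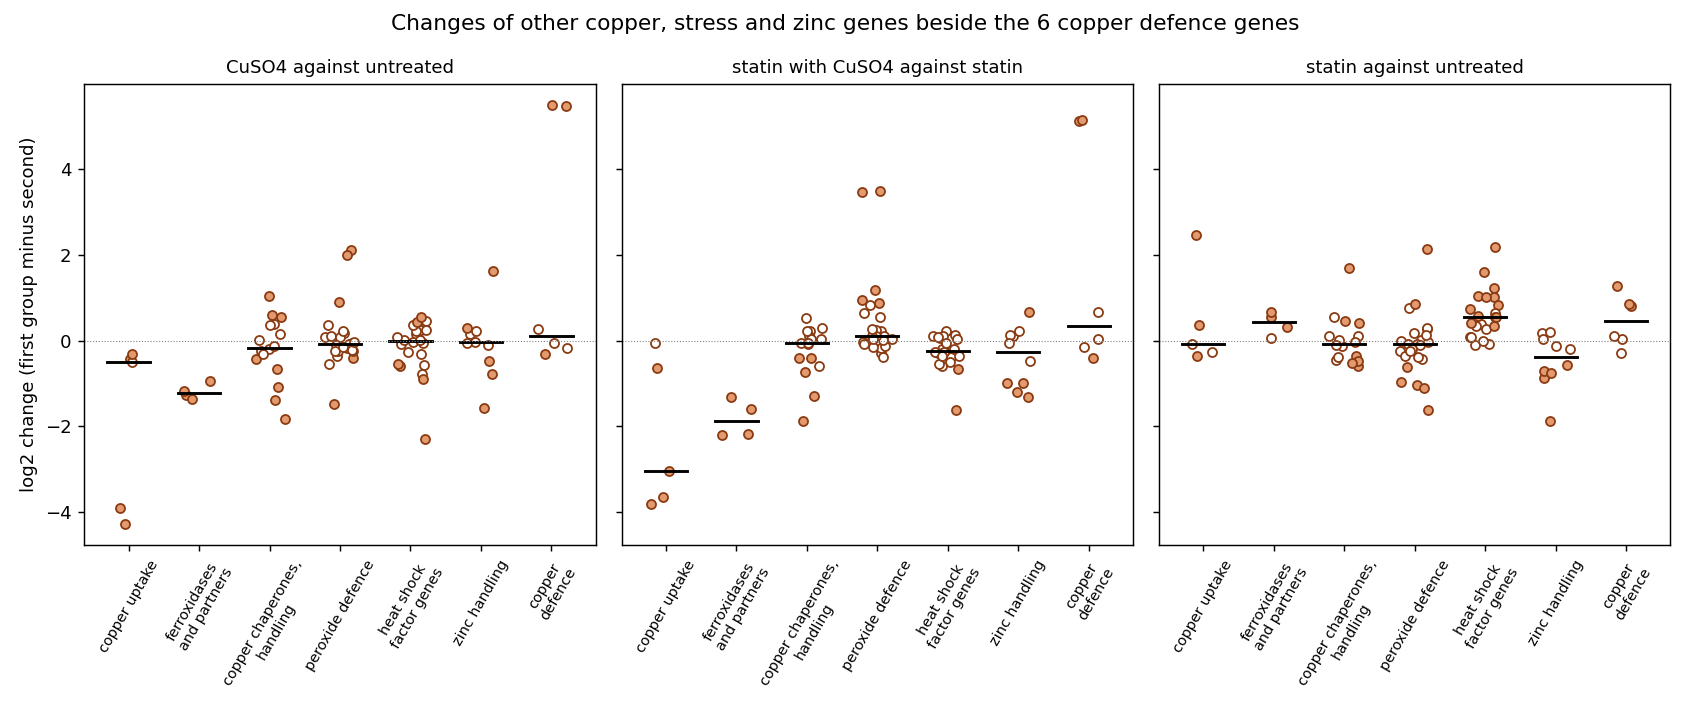
Log2 change (first group minus second) of every tested gene of 6 lists and of the 6 copper defence genes, in 3 comparisons. Filled points passed an adjusted p under 0.05 in limma and bars are list medians, with the CUP1 pair above 5 under copper while the copper uptake and ferroxidase lists lie below 0.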

How the data were processed

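The authors deposited Agilent Feature Extraction 10.5.1.1 scanner output for 23 arrays. Per the file headers it holds median intensities of spot and background, a processed signal, a log10 ratio of red over green and quality marks. The deposited value table, also log10, equals that log ratio with its sign turned, within 5.0e-06, with column medians of 0 to 0.00326. Of 6256 probe names, 5756 matched the RefSeq table of assembly R64. Positions in the files are of an older genome release than that table, so none are given.

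Median intensities were used because the files hold no mean intensities. They were background-corrected with normexp (offset 50) and normalized by loess within arrays with control spots at weight 0 (limma 3.58.1 in R 4.3.3). Spots marked as outliers were left out, which removed 1 spot each of SOD1 (statin replicate 1) and CCS1 (statin with ZnSO4 replicate 3). Log2 ratios computed from the deposited intensities were averaged over the 2 spots of a probe and then over duplicate arrays of 1 sample. Duplicate arrays differed by at most 0.18 on the log2 scale for a member (SOD1, 6 pairs). Genes were tested, 5606 in all, if some group had both spots well above background on each of its arrays. One fit over 17 samples and 6 group means had 11 residual degrees of freedom, and p-values are two-sided and Benjamini-Hochberg adjusted over all 5606 genes in each comparison. The script was tested on simulated data. The number of arrays limits the precision.

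Named are every member in each comparison and PDR5. Also named are at most 4 called genes of each list with the greatest change in each copper comparison, and the 3 genes most like each member. HIS3, LEU2, MET17, URA3 and mating type genes are named as a check of the strain. The members, lists and tests were chosen with earlier results of these data known. Sequences and promoter motifs are not analysed here. Replicate numbers are given to each sample by the labels, and same-numbered samples share a scan session per the file headers. Alternatives were no background correction, median centring, the value table, first arrays only, no filter, the replicate number as a block, leaving out each sample and, added later, the sample channel alone (log2 processed signal minus the array's 75th percentile).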

Additional observations from a re-analysis of the deposited data

How the results depend on the processing

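The rise of CUP1-1 with CuSO4 was called in all 24 alternatives, at 4.77 to 5.75 on the log2 scale, as was that in statin-treated cells, at 4.37 to 5.31, and the lowest value of each came from the sample channel alone. Of 462 member values under the alternatives that kept all samples, 430 kept direction and call, 14 became called, 2 lost the call and 16 changed sign. Of 1122 with 1 sample left out the numbers were 1054, 13, 16 and 39. No call changed sign.

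All sign changes were of values not called in the comparison as reported. The farthest from 0 were those of CUP1-1, from 0.47, and SOD1, from 0.12, under median centring, and of SOD1 in statin with ZnSO4 against statin, from -0.22, with 1 sample left out. With the replicate block, ZnSO4 in statin-treated cells gave CCS1 -0.0069, the statin by ZnSO4 interaction of SOD1 was 0.058, and CRS5 in statin with CuSO4 against statin with ZnSO4 was -0.00075. That CRS5 value was -0.024 in the value table and -0.14 from the sample channel alone, which also gave CUP2 -0.028 there. The sample channel alone gave CRS5 -0.042 in ZnSO4 against untreated, CCS1 -0.064 in statin with ZnSO4 against statin and -0.025 in the interaction of statin and ZnSO4, and SOD1 -0.033 and CCS1 0.0010 in statin with CuSO4 against CuSO4. In that last comparison median centring gave CUP1-1 -0.011 and SOD1 -0.38, and first arrays only gave CCS1 0.0095. In the statin by ZnSO4 interaction, no background correction gave CRS5 -0.014 and first arrays only gave CUP1-2 -0.0084.

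Leaving out 1 sample moved CCS1 between -0.067 and 0.10 (CuSO4 against ZnSO4), -0.12 and 0.049 (CuSO4 against untreated), -0.019 and 0.13 (statin by ZnSO4), -0.10 and 0.064 (statin with CuSO4 against CuSO4), and -0.071 and 0.078 (statin with ZnSO4 against statin). It moved CRS5 between -0.063 and 0.061 (ZnSO4 against untreated), -0.18 and 0.21 (statin by ZnSO4), -0.023 and 0.16 (statin with CuSO4 against statin), -0.18 and 0.21 (statin with CuSO4 against statin with ZnSO4), -0.14 and 0.24 (statin with ZnSO4 against ZnSO4), and -0.16 and 0.22 (statin with ZnSO4 against statin). The statin by ZnSO4 interaction moved between -0.23 and 0.27 for CUP1-1, -0.27 and 0.23 for CUP1-2 and -0.23 and 0.21 for SOD1. CUP2 moved between -0.046 and 0.073 (statin with CuSO4 against statin with ZnSO4), and SOD1 between -0.10 and 0.24 (statin with CuSO4 against CuSO4) and -0.40 and 0.048 (statin with ZnSO4 against statin). A lone sample left in a group was assumed to vary like the others.

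The sample channel alone called fewer genes, namely 1254 against 1939 (CuSO4), 582 against 939 (CuSO4 with the statin), 679 against 1034 (statin by CuSO4), 572 against 928 (ZnSO4), 785 against 1235 (ZnSO4 with the statin), 21 against 58 (statin by ZnSO4), 955 against 1603 (statin with ZnSO4 against ZnSO4), 482 against 879 (CuSO4 against ZnSO4) and 5 against 27 (the same with the statin). For the statin against untreated cells it called 730 genes higher and 706 lower, against 1009 and 1056. For the statin with CuSO4 against CuSO4 it called 782 higher and 917 lower, against 1180 and 1305. The cause of the lower counts was not tested. The block called 103 genes for statin by ZnSO4 and 1420 for CuSO4 against ZnSO4. With 1 sample left out the counts ranged from 456 to 1065 (CuSO4 against ZnSO4), 611 to 1051 (ZnSO4), 18 to 98 (statin by ZnSO4), 7 to 567 (statin with CuSO4 against statin with ZnSO4), 715 to 1780 (statin with ZnSO4 against ZnSO4) and 564 to 1377 (ZnSO4 with the statin). Same-numbered samples, which share a scan session per the file headers, deviated from their group means together in 33 of 40 pairs (r over 0.1, range -0.09 to 0.69). Of 17 samples, 17 correlated best with one of their own number. The fit as reported holds no term for the session, and the replicate block does. Dim probes in session 3, with 77.1% to 89.9% well above background, limit the test of weak genes but none of the members.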
